A study of Mus musculus with 8 samples.

Results

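Creatine carries high-energy phosphate between the places where ATP is made and where it is used. It is made in a pair of steps: Gatm encodes the mitochondrial enzyme that joins arginine and glycine into guanidinoacetate, and Gamt encodes the enzyme that methylates guanidinoacetate to creatine. Slc6a8 encodes the sodium- and chloride-dependent transporter that brings creatine into cells, and the kinases encoded by Ckb in the cytosol and Ckmt1 in mitochondria move phosphate between ATP and creatine. In the brain these steps are known to be spread over neurons, glia and vessel cells, with Gamt strong in oligodendrocytes. The 5 genes Gatm, Gamt, Slc6a8, Ckb and Ckmt1 are described here, of 24421 gene rows in the count tables. They were chosen by name for their place in this pathway, with their KO and Control counts in these same libraries already known, so the difference between KO and Control is given for them as a description that supports nothing, and no p is given for them.

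The 4 KO libraries came from C57BL/6 mice with the genotype Otp-Cre; Cicflox/flox; ROSAfsTRAP, in which both Cic alleles are floxed, and the 4 Control libraries from C57BL/6 mice with Otp-Cre and ROSAfsTRAP but without the floxed allele. Cic encodes Capicua, a DNA-binding repressor that partners ATXN1. Otp-Cre acts in cells of the Otp lineage, in which the TRAP allele then tags ribosomes, and the RNA bound to them was purified from dissected hypothalamus and medial amygdala, sequenced and counted per gene. The sources used here state neither the age nor whether a library came from 1 animal or several, so the spread between replicates may be in part technical.

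Libraries held 33223878 to 49587839 gene counts in KO and 38171319 to 57300362 in Control. Cic had 44.9, 34.5, 59.3 and 37.5 CPM (counts scaled to library size by the TMM method) in KO replicates 1 to 4, against 103, 72.4, 101 and 101 CPM in Control replicates 1 to 4, and the groups did not overlap. Libraries stood apart in their spike-in RNA, which made up 0.0655%, 0.0569%, 0.395% and 0.0739% of gene counts in KO replicates 1 to 4, against 0.299%, 0.522%, 0.401% and 0.327% in Control replicates 1 to 4. KO replicates 1, 2 and 4 thus lay below all Control libraries and KO replicate 3 lay among them. Every library held transcripts of Y-linked genes (Ddx3y at 27.3 to 46.2 CPM) and little Xist (1.22 to 3.37 CPM). Slc6a8 is X-linked, but a library may hold RNA of several animals, so these values do not settle the sex of each animal. Otp itself was low, with 4.96 ± 2.54 CPM in KO and 3.45 ± 1.14 CPM in Control (mean ± SD, n = 4 each).

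Gatm, the first enzyme of creatine synthesis, was the member with the widest difference between the groups. It had 93.4, 122, 116 and 102 CPM in KO replicates 1 to 4, against 187, 157, 161 and 190.1 CPM in Control replicates 1 to 4. Every KO library lay below every Control library, with KO replicate 1 the lowest of all and Control replicates 1 and 4 the highest. Without KO replicate 3, whose spike-in share lay among those of Control libraries, the log2 fold change was -0.71. The other KO libraries had less spike-in RNA than any Control library. What made the spike-in shares differ is not known here, and its part in the Gatm difference was not tested. The means were 109 ± 13.0 CPM in KO and 173 ± 17.3 CPM in Control (SD, n = 4 each), so that KO held 62.6% of the Control level. The log2 fold change of KO over Control was -0.68 (SE 0.11, the standard error of the difference between group means of log2 CPM). The fit across all genes, whose outcome was known when Gatm was chosen, called 40 of 15438 genes (edgeR adjusted p under 0.05), a share of 0.259%, with Gatm as the only one of the 5 members among them. It was also the only member whose groups did not overlap, where 2.91% of all genes tested had every KO library below every Control library. Since the members were chosen with this contrast known, nothing is read from either count. Gatm fell short of the threshold when Control replicate 1 or Control replicate 4 was left out, at log2 fold changes of -0.64 and -0.63, and with the mean of oligodendrocyte markers as a covariate, at -0.46. The 40 calls themselves became 26 without KO replicate 2 and 19, 17, 26 and 14 without Control replicates 1, 2, 3 and 4.

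Gatm (ENSMUSG00000027199.14) is annotated on the minus strand of chromosome 2, between 122594467 and 122611303 in GRCm38, and overlaps no other annotated gene. Its RefSeq promoter is shown because Gatm differed most, beside that of Ckb, the most abundant member and the one whose difference has the opposite sign. Each window holds the 250 bases before the RefSeq start on GRCm38.p6, read 5′ to 3′ on the strand of the gene, at chr2:122611278-122611527 (minus strand) for Gatm and chr12:111672339-111672588 (minus strand) for Ckb. Capitals mark CCAAT boxes (CCAAT) and TATA boxes (TATAAA) on either strand.
Gatm: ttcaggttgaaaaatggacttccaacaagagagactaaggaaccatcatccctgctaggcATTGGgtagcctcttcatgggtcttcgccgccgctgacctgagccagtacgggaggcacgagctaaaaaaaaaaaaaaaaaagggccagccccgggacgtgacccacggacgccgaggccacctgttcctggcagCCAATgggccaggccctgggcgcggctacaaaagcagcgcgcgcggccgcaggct
Ckb: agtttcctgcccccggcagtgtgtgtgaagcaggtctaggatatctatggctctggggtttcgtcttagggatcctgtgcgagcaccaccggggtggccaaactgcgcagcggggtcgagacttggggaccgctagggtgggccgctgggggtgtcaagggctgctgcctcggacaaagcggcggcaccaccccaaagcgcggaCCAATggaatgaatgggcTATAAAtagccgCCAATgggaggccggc
The octamers TGAATGAA and TGAATGGA, known as binding sites of Capicua, were searched on both strands as well. Neither stood in these windows or in those of Gamt and Ckmt1. Of all 32851 promoter windows of the same length, 1.08% held TGAATGAA and 1.01% held TGAATGGA. CCAAT stood in 33.8% of all windows and TATAAA in 12.4%. In Gatm a CCAAT box began 55 bases before the start and another, on the opposite strand, 190 bases before it, with no TATA box. In Ckb, CCAAT boxes began 46 and 16 bases before the start with a TATA box between them at 28 bases, and no marked motif overlaps another. The absence of a match says only that these letters are not in these windows. Slc6a8 had no entry in the promoter table, so 4 of the 5 members were matched.

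Gamt, the methyltransferase of the second step, did not show the difference seen for Gatm. It had 14.8, 12.7, 11.2 and 14.3 CPM in KO replicates 1 to 4, against 13.0, 13.6, 14.2 and 15.1 CPM in Control replicates 1 to 4. The groups overlapped over most of their range, with KO replicate 3 lowest and Control replicate 4 highest. The means were 13.2 ± 1.64 CPM in KO and 14.0 ± 0.904 CPM in Control (SD, n = 4 each), a log2 fold change of -0.08 (SE 0.10). Gamt (ENSMUSG00000020150.13) is annotated on the minus strand of chromosome 10, between 80258151 and 80261012.

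The ratio of the enzymes of the first and second step therefore differed between the groups. Per kilobase of exon, Gatm stood to Gamt at 3.04, 4.62, 5.01 and 3.46 in KO replicates 1 to 4, against 6.90, 5.53, 5.44 and 6.04 in Control replicates 1 to 4. All 4 KO ratios lay below all 4 Control ratios, with means of 4.03 ± 0.936 in KO and 5.98 ± 0.673 in Control (SD, n = 4 each). This follows from the Gatm values and is no separate evidence.

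Slc6a8, the creatine transporter, was lower in KO on average but not in every library. Its level was 147, 163, 209 and 116 CPM in KO replicates 1 to 4, against 206, 220.4, 196 and 185 CPM in Control replicates 1 to 4. KO replicates 1, 2 and 4 lay below all Control libraries, whereas KO replicate 3 lay within the Control range. The means were 159 ± 38.4 CPM in KO and 202 ± 14.9 CPM in Control (SD, n = 4 each), with a log2 fold change of -0.35 (SE 0.18). Leaving out KO replicate 3 gave -0.51 and leaving out KO replicate 4, the lowest, gave -0.23, so single libraries set much of its size. Slc6a8 (ENSMUSG00000019558.14) is annotated on the plus strand of chromosome X, between 73673150 and 73682502.

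Ckb, the cytosolic kinase of brain, leaned the other way. It had 486, 524, 358 and 486 CPM in KO replicates 1 to 4, against 392, 337, 412 and 384 CPM in Control replicates 1 to 4. KO replicates 1, 2 and 4 lay above all Control libraries, and KO replicate 3, which held the most Slc6a8 of the KO libraries, held the least Ckb of them and lay within the Control range. For both genes the KO libraries outside the Control range were thus the 3 with little spike-in RNA. What made the spike-in shares differ is not known here, and its part in these differences was not tested. The means were 464 ± 72.7 CPM in KO and 381 ± 31.3 CPM in Control (SD, n = 4 each), with a log2 fold change of 0.28 (SE 0.14) that became 0.39 without KO replicate 3. Ckb (ENSMUSG00000001270.9) is annotated on the minus strand of chromosome 12, between 111669361 and 111672338. RefSeq lists Ckb pseudogenes on chromosome 17, and the HTSeq tables set apart reads that align to more than 1 place, so Ckb may be undercounted. Such alignments made up 63.3% (Control replicate 1) to 81.9% (KO replicate 4) of all records in a table, so this limit concerns every library.

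Ckmt1, the mitochondrial kinase that works beside the adenine nucleotide carrier, had nearly equal means and a wide spread in KO. It had 112, 72.0, 63.8 and 64.4 CPM in KO replicates 1 to 4, against 80.8, 81.5, 90.6 and 70.2 CPM in Control replicates 1 to 4. KO replicate 1 was the highest of all libraries, while KO replicates 3 and 4 were the lowest. The means were 77.9 ± 22.7 CPM in KO and 80.8 ± 8.36 CPM in Control (SD, n = 4 each), with a log2 fold change of -0.05 (SE 0.20) that became -0.29 without KO replicate 1. Its sign turned to positive without KO replicate 3 (0.03), KO replicate 4 (0.02) or Control replicate 3 (0.01), so no direction is given for it. Ckmt1 (ENSMUSG00000000308.14) is annotated on the plus strand of chromosome 2, between 121357714 and 121363737, with its start coordinate 1.24 Mb from that of Gatm. It shares 10 bases with Strc on the opposite strand, which had at most 1.11 CPM.

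**Figure D1:**
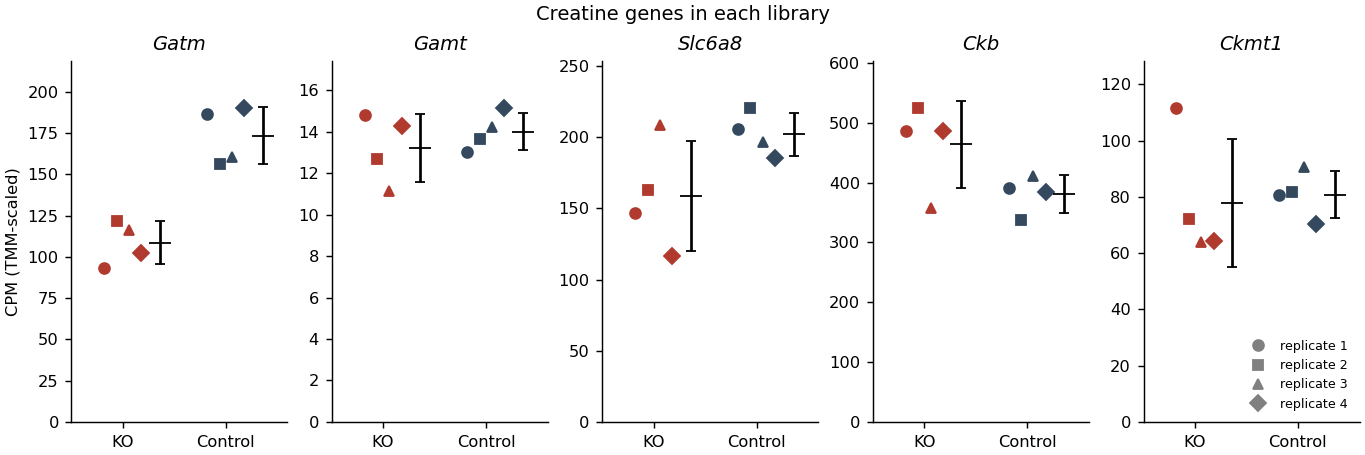
CPM of each member in the 4 KO and 4 Control libraries, 1 panel per gene with its own axis from 0; symbols mark replicate numbers, and the bar at the right of each group is the mean ± SD. Gatm is the only panel in which the groups do not overlap, and KO replicate 3 is high for Slc6a8 and low for Ckb.

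The balance of the kinases varied more among KO libraries than among Control libraries. Per kilobase of exon, Ckb stood to Ckmt1 at 3.76, 6.28, 4.84 and 6.51 in KO replicates 1 to 4, against 4.18, 3.57, 3.92 and 4.71 in Control replicates 1 to 4. KO replicates 2, 3 and 4 lay above the Control range and KO replicate 1, with its high Ckmt1, lay inside it. For 4 of the 5 members the SD in CPM was larger in KO than in Control, the exception being Gatm (SD 13.0 CPM in KO and 17.3 CPM in Control). The Gatm mean was lower in KO, however. As a share of the group mean the SD was larger in KO for every member, with the narrowest gap for Gatm. Summed over the 5 genes, the level was 822 ± 62.6 CPM in KO and 851 ± 31.5 CPM in Control (SD, n = 4 each), so the total differed by less than the spread.

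Levels of different genes were compared as RPKM (reads scaled to exon length and library size, from the TMM-scaled counts and the merged exons of GENCODE M21). In KO the order was Ckb at 160.2 ± 25.1, Gatm at 36.2 ± 4.34, Ckmt1 at 31.2 ± 9.10, Slc6a8 at 30.5 ± 7.37 and Gamt at 9.16 ± 1.13 RPKM (SD, n = 4). In Control it was Ckb at 132 ± 10.8, Gatm at 57.8 ± 5.78, Slc6a8 at 38.8 ± 2.86, Ckmt1 at 32.4 ± 3.35 and Gamt at 9.69 ± 0.626 RPKM (SD, n = 4). Ckb thus led and Gamt came last in both groups, apart from the rest. The ranges of Gatm, Ckmt1 and Slc6a8 overlapped in KO, while in Control Gatm (52.2 to 63.3 RPKM) stood above Slc6a8 (35.5 to 42.3 RPKM), which overlapped Ckmt1 (28.1 to 36.3 RPKM). The merged exons of Ckb, 2895 bases, include introns kept by some annotated transcripts and so lower its value. With coding length instead, Slc6a8 and Ckmt1 separated in Control, at 105 ± 7.76 and 56.8 ± 5.87 RPKM, and Slc6a8 came before Ckmt1 in KO as well (82.6 ± 20.0 and 54.8 ± 16.0). By CPM, Ckb ranked at 97.2% to 98.8% of genes tested in KO libraries and at 97.2% to 98.1% in Control libraries. Gatm ranked at 84.2% to 88.4% in KO libraries and at 91.7% to 93.6% in Control libraries.

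**Figure D2:**
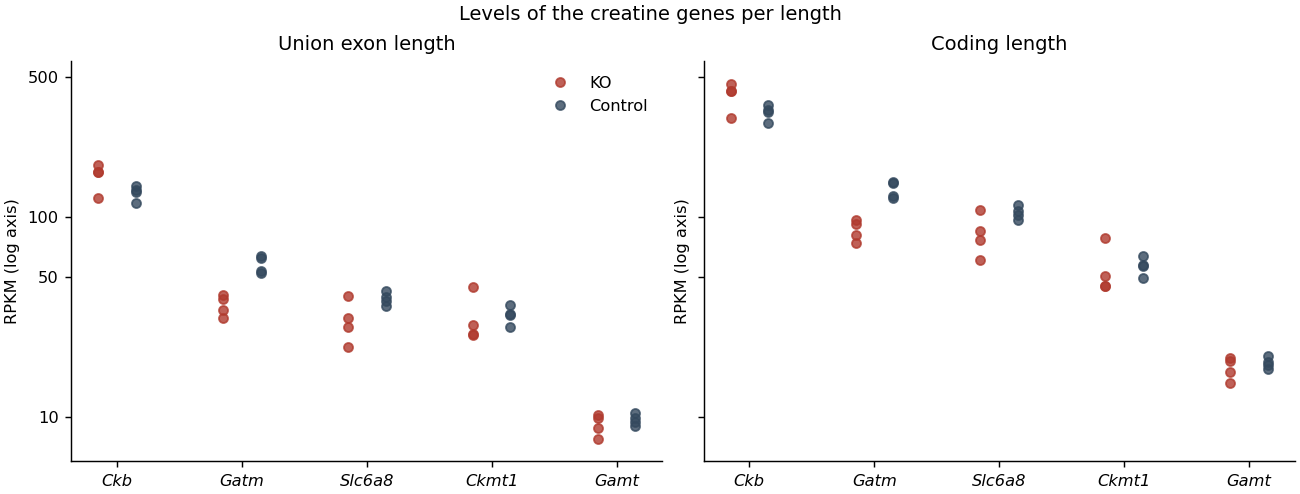
RPKM of the 5 genes in each library (log axis), KO left of Control, by merged exon length in the left panel and by coding length in the right panel. Ckb is highest and Gamt lowest in both panels, and the length used changes how far Slc6a8 stands from Ckmt1.

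The genes most alike to each member were those with the smallest root-mean-square difference in log2 CPM over the 8 libraries, each profile being centred on its own mean, among 9375 genes with a mean of at least 10 CPM. For Gatm these were Cdk19, a kinase of the Mediator complex, at 0.11, Syndig1l at 0.12 and Nsmf at 0.12, where the median gene differed from Gatm by 0.42. Cdk19 had 36.1 ± 3.27 CPM in KO and 53.2 ± 4.40 CPM in Control (SD, n = 4 each). The profiles include the difference between KO and Control, so its lower KO level follows from how it was picked. The nearest of 9375 genes are close by selection, so nothing is read from the distances. Gamt, whose own profile varied least, was most like Tma16 (0.05), Orc2 of the origin recognition complex (0.05) and Wdr12 (0.06). Slc6a8 was nearest to Hrk, which encodes a cell death activator (0.06), Xkr8 (0.09) and Pou6f1 (0.09), and Ckb to Elp2 (0.04), the clathrin heavy chain gene Cltc (0.05) and Eprs (0.05). For Ckmt1 the nearest were Supt16 (0.06), the constitutive chaperone gene Hspa8 (0.07) and Dock3 (0.08). No member was among the 3 genes nearest to another.

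The other creatine kinases were close to absent. Ckm, the muscle form, had 0.297 ± 0.165 CPM in KO and 0.497 ± 0.276 CPM in Control (SD, n = 4 each), and the sarcomeric mitochondrial form Ckmt2 had 0 to 0.436 CPM across KO libraries against 0 to 0.246 CPM across Control libraries and was not tested. Slc16a12, which encodes a carrier known to move creatine, had 0.469 ± 0.299 CPM in KO and 0.476 ± 0.343 CPM in Control. Ckb and Ckmt1 therefore held nearly all creatine kinase counts in both groups.

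Around these genes, 9 lists of the creatine pathway and its partners were followed: the other kinases and carriers, supply of arginine, glycine and methyl groups, relatives of Slc6a8, partners in phosphate transfer, ATP-driven ion pumps, AMP-activated protein kinase and glycolysis. Of 103 listed genes 102 had a row and 91 were tested. None was called (edgeR adjusted p, the smallest 0.137), 0 of 91 where 0.259% of all genes tested were called. DESeq2 called 1 of the 91, where it called 200 of all 15438 genes tested. At an unadjusted p under 0.05 there were 9, or 9.89%, beside 10.6% of all genes tested. Fold changes were positive for 55 and negative for 36, with a median of 0.05, where the median of all genes tested was 0.02. In 4 of the 91 every KO library was above every Control library, beside 3.01% of all genes tested, and in 0 every KO library was below.

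Among genes that handle arginine and ornithine, 7 of 8 tested were positive (median 0.08). Nos1, the neuronal enzyme that makes nitric oxide from arginine, had 131 ± 26.6 CPM in KO and 89.3 ± 12.2 CPM in Control (SD, n = 4 each), a log2 fold change of 0.55 with SE 0.17 (edgeR adjusted p = 0.137). This gene did not pass here and was the gene that DESeq2 called (adjusted p = 0.0302), and its groups did not overlap. Oat, which breaks down the ornithine released by the Gatm reaction, had 40.9 ± 9.21 CPM in KO and 35.4 ± 3.93 CPM in Control (0.21, edgeR adjusted p = 0.689), and the arginine carrier gene Slc7a3 had a log2 fold change of 0.13. Of 11 genes of glycine and serine supply 8 were positive (median 0.04), with the dehydrogenase subunit gene Dld at 0.26 (edgeR adjusted p = 0.410), the glycine transporter gene Slc6a9 at -0.19 and Gldc of the glycine cleavage system at 0.41.

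The methyl group that Gamt adds comes from S-adenosylmethionine. Of 12 tested genes of its supply 9 were positive (median 0.12). Cbs, which draws homocysteine out of the cycle, had 10.1 ± 2.21 CPM in KO and 7.18 ± 0.938 CPM in Control (0.49, edgeR adjusted p = 0.379). Mtr, methionine synthase, was low, with 1.84 ± 0.176 CPM in KO and 1.04 ± 0.366 CPM in Control (0.82, edgeR adjusted p = 0.512), without overlap between groups. Relatives of the creatine transporter were negative in 7 of 9 cases (median -0.07). The dopamine transporter gene Slc6a3 had 11.7 ± 2.27 CPM in KO and 18.9 ± 12.5 CPM in Control (-0.70, edgeR adjusted p = 0.558), and Slc6a15 was at 0.20. Slc6a20a was low, with 0.863 ± 0.590 CPM in KO and 1.62 ± 1.30 CPM in Control (-0.93, SE 0.78). Its groups overlapped, and none of these relatives passed.

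Partners of the mitochondrial kinase in phosphate transfer were positive in 9 of 17 cases (median 0.02). Slc25a4, which exchanges ADP and ATP across the inner membrane, had 1436 ± 190.0 CPM in KO and 1175 ± 86.0 CPM in Control (0.29, edgeR adjusted p = 0.397). The outer membrane channel gene Vdac1 had 486 ± 58.7 CPM in KO and 401 ± 25.9 CPM in Control (0.28, edgeR adjusted p = 0.400), and the adenylate kinase gene Ak3 was at 0.22. Of 11 ATP-driven pump genes 6 were positive (median 0.04), with the sodium pump subunit gene Atp1b2 at 0.40 (edgeR adjusted p = 0.294), Atp2b1, a calcium pump of the plasma membrane, at -0.30 and Atp2b3 at 0.21. The catalytic subunit gene Prkaa1 of AMP-activated protein kinase had 57.9 ± 3.01 CPM in KO and 48.7 ± 2.70 CPM in Control (0.25, edgeR adjusted p = 0.436), in a list with 4 of 6 positive (median 0.20). In the same list Prkaa2 was at 0.23 and Prkag1 at -0.19. Of 15 glycolytic genes 10 were positive (median 0.07), with Gapdh at 0.30 (edgeR adjusted p = 0.342), Ldha at 0.24 and Pfkp at 0.21. No gene of these lists passed over all genes tested.

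**Figure D3:**
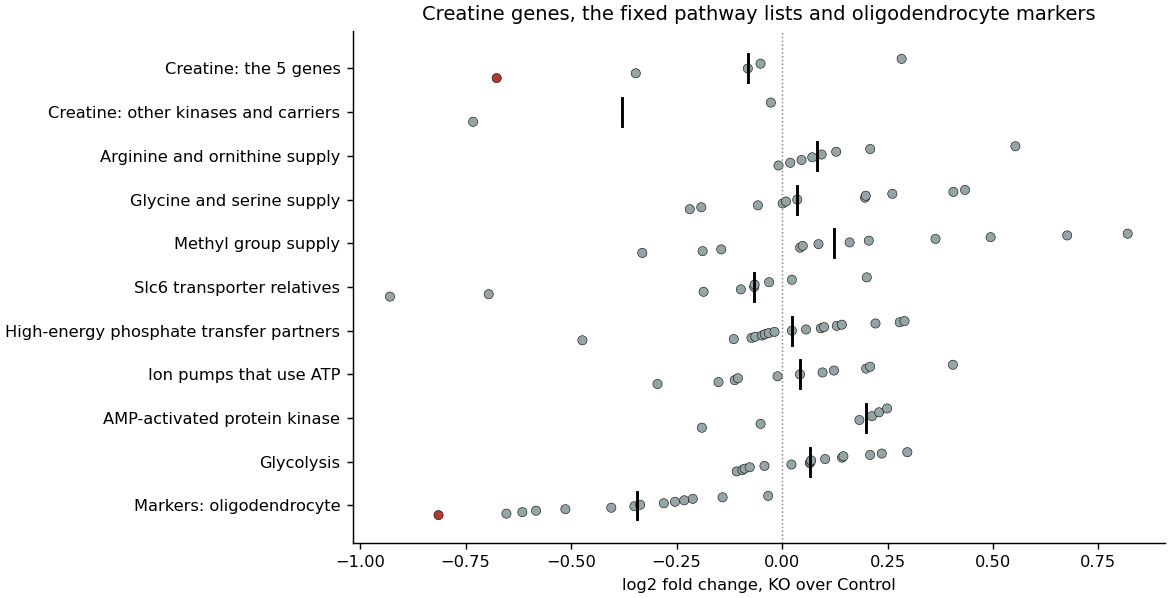
Log2 fold change of KO over Control for each tested gene of the 5 creatine genes, the 9 pathway lists and the oligodendrocyte markers; red points are genes called by edgeR and the vertical bars are list medians. Gatm and the oligodendrocyte marker Cldn11 are the called genes, and the pathway lists lie around 0.

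Markers of oligodendrocytes, a cell type in which creatine synthesis genes are known to be expressed, moved in the same direction as Gatm. All 14 markers had a negative fold change (median -0.34), and 1, the myelin claudin gene Cldn11 at -0.81, was called, where 46.2% of all genes tested were negative and 0.259% called. Their summed level was 1785, 3271, 2416 and 2953 CPM in KO replicates 1 to 4, against 3581, 2796, 3180.3 and 3515 CPM in Control replicates 1 to 4. The sums overlapped, since KO replicates 2 and 4 lay above Control replicate 2, and no marker was at 0. KO replicate 1 had both the lowest marker sum and the lowest Gatm, and Control replicates 1 and 4 had the highest of both. As a share of that sum Gatm was 5.23%, 3.73%, 4.81% and 3.47% in KO replicates 1 to 4, against 5.21%, 5.60%, 5.05% and 5.41% in Control replicates 1 to 4. KO replicate 1 then lay within the Control range and the other 3 KO libraries lay below it. With the mean of these markers as a covariate the log2 fold change of Gatm was -0.46, that of Slc6a8 -0.42, that of Gamt -0.14, that of Ckb 0.37 and that of Ckmt1 -0.46. In such libraries fewer cells of a type, less RNA per cell and a different carry-over of RNA from untagged cells cannot be told apart.

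**Figure D4:**
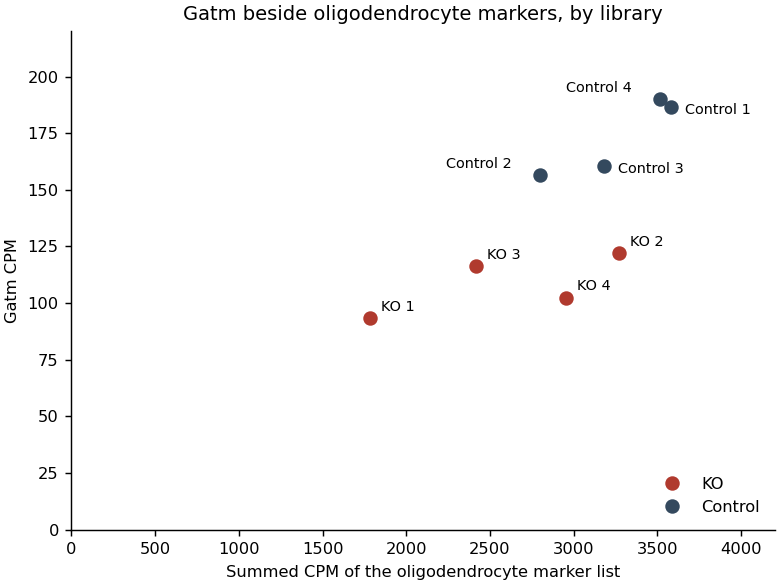
Gatm CPM against the summed CPM of 14 oligodendrocyte markers in each library, labelled by group and replicate. The 4 KO libraries lie below the 4 Control libraries in Gatm, while the groups overlap along the marker axis.

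Other markers also differed between the groups to some degree. Astrocyte markers were negative in 7 of 11 cases (median -0.10), with sums of 947 to 1508 CPM across KO libraries against 1083 to 1544 CPM across Control libraries. Markers of oligodendrocyte precursors were negative in 7 of 9 cases (median -0.26; 139 to 209 CPM across KO libraries against 205 to 236 CPM across Control libraries). Microglia markers were negative in 10 of 11 cases (median -0.50; 30.9 to 50.8 CPM across KO libraries against 28.1 to 80.7 CPM across Control libraries), endothelial and mural markers in 7 of 12 (median -0.28; 9.61 to 28.6 CPM across KO libraries against 11.0 to 44.6 CPM across Control libraries), and ependymal and tanycyte markers in 5 of 6 (median -0.38; 18.9 to 33.6 CPM across KO libraries against 26.2 to 36.1 CPM across Control libraries). Neuronal markers were positive in 6 of 8 cases (median 0.12; summed 12428 to 16535 CPM in KO libraries, against 12157 to 14294 CPM in Control libraries). Otp-lineage markers were positive in 10 of 10 cases (median 0.45), with sums of 1367 to 2209 CPM in KO above 1189 to 1237 CPM in Control. Taken singly, 1 of the 10 had every KO library above every Control library, beside 3.01% of all genes tested. None of these 7 lists had a called gene or a marker at 0 in all libraries. The part of these markers in the levels of the 5 creatine genes was not tested beyond the oligodendrocyte covariate.

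The fold changes of the members kept their sign in all 14 alternatives for Gatm, Gamt, Slc6a8 and Ckb, and in 11 of 14 for Ckmt1. Gatm ranged from -0.75 to -0.46, Slc6a8 from -0.51 to -0.23, Ckb from 0.21 to 0.39 and Gamt from -0.15 to -0.01.

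**Figure D5:**
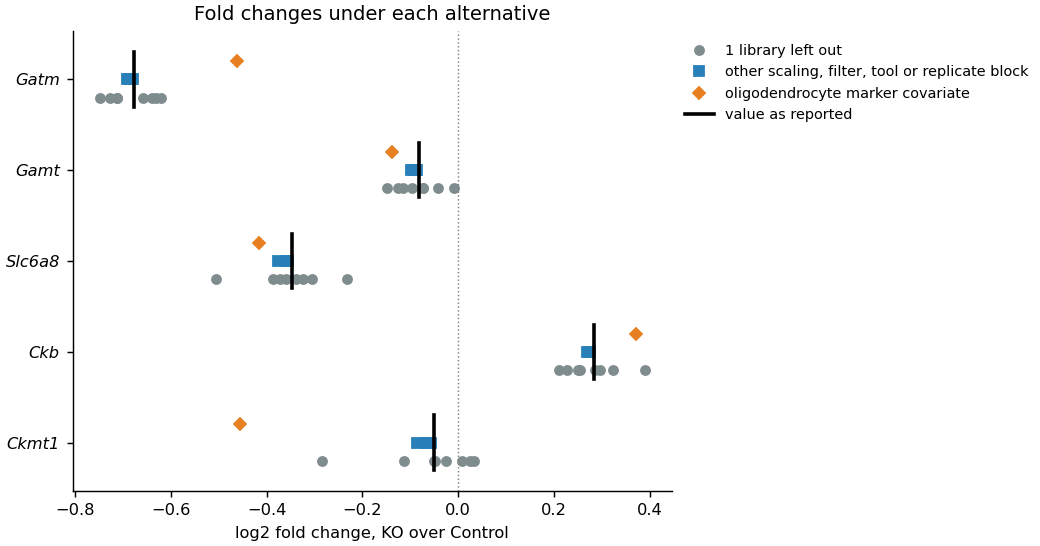
Log2 fold change of KO over Control of the 5 genes as reported (black bar), with 1 library left out (grey), with another scaling, filter, tool or a replicate block (blue) and with the oligodendrocyte covariate (orange). Gatm stays between -0.75 and -0.46, and Ckmt1 falls on both sides of 0.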

How the data were processed

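The deposited values were raw read counts per gene symbol in 1 table per library. Per the submitters' processing notes the authors used TopHat2 2.0.9, HTSeq and mm10; gene annotation, strand setting and HTSeq version are not stated there. The protocol amplified cDNA from little RNA and names no molecular identifiers, so counts are not independent molecules. Each table held 24421 gene rows; library sizes and tests excluded 92 spike-in and 5 counter rows.

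The main test was edgeR's quasi-likelihood test (version 4.0.16, R 4.3.3, robust, TMM factors) of KO against Control in all 8 libraries without covariates. Genes entered it through filterByExpr (minimum count 10, total 15), and p-values of 15438 genes were adjusted by Benjamini-Hochberg, threshold 0.05. All 5 members passed the filter. DESeq2 1.42.0 was an alternative. Counts of the 28 library pairs differed with a chi-square of 25.9 or more for each degree of freedom, so no table is a copy of another. Since counts are not independent molecules, this cannot tell whether libraries came from the same animal or RNA. Exon and coding lengths and positions came from GENCODE M21 and promoters from RefSeq, both on GRCm38, which may differ from the annotation used for counting.

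The members and lists were chosen with earlier results of these data known. Beside the members and Cic, the text names from each pathway list the 3 genes of smallest p with a mean of at least 1 CPM (none was called), and the called marker; Ckm, Ckmt2 and Slc16a12 and the marker Otp were named outside this rule after their values were seen, and 1 gene that it covers is not reported here.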

Additional observations from a re-analysis of the deposited data

Results flagged for a closer look

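Among 60 groups of 4 libraries examined, those of the members, Cic and the named pathway genes, 2 had a library far from the other 3, where about 5% are expected by chance. Cic in Control replicate 2, at 72.4 CPM, lay below the other Control libraries at 101 to 103 CPM. Ak3, an adenylate kinase of the mitochondrial matrix, had 79.3 CPM in KO replicate 1, below the other KO libraries at 115 to 120 CPM. None of the 5 creatine genes was flagged. Ckmt1 in KO replicate 1, at 112 CPM against 63.8 to 72.0 CPM in the other KO libraries, fell just short.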

How the results depend on the processing

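The count of 40 called genes became 26 with total counts only, 65 with the replicate block, 20 with the oligodendrocyte covariate and 200 with DESeq2, and 14 to 53 when 1 library was left out. All 40 were among the 200 of DESeq2, 39 among the 65 with the block and 11 among the 20 with the covariate. Of the pathway genes 1, Nos1, was called by DESeq2 and 0 in the other 13 alternatives. With the oligodendrocyte covariate Gatm was at -0.46 and Ckmt1 at -0.46, both moved by more than 1 SD of the replicates; the cause was not tested. Leaving out 1 library gave log2 fold changes of -0.75 to -0.62 for Gatm, -0.29 to 0.03 for Ckmt1, -0.15 to -0.01 for Gamt, -0.51 to -0.23 for Slc6a8 and 0.21 to 0.39 for Ckb. With coding length in place of exon length the mean over 8 libraries became 111 for Gatm (47.0 by exons), 18.0 for Gamt (9.42), 93.9 for Slc6a8 (34.6), 370 for Ckb (146) and 55.8 for Ckmt1 (31.8), which the shorter lengths bring about. The labels number the replicates but do not say that a number pairs mice, so the numbers were not taken as pairs. Same-numbered KO and Control libraries deviated from their group means with correlations of -0.05 to 0.10, which do not settle the pairing. The replicate block gave Gatm -0.68 and changed the call of no member. Gamt, with 451 to 760 counts per library, is the member with the fewest counts.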
